A study of Mus musculus with 3 samples.

Results

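The Notch receptors, ligands and targets described here are 10 genes: the 4 receptors Notch1 to Notch4, the 4 ligands Jag1, Jag2, Dll1 and Dll4, and the 2 target genes Hes1 and Hey1. They were chosen by name, and all 10 were among the 18865 genes measured with at least 4 probesets. A probeset is a small group of array probes for 1 stretch of a transcript, and it was used where the platform annotation named exactly 1 gene. The 10 genes held 274 such probesets of 318760 in all, from 8 each for Hes1 and Hey1 to 46 each for Notch1 and Notch4, and 2 further probesets that named a member together with another gene were left out.

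The samples were 3 Affymetrix arrays, numbered as in their titles, of GFP+ cells sorted from the bone marrow of C57BL/6 mice. GFP in these mice is driven by the nestin promoter, so the sorted cells are those in which that reporter is active and need not be of 1 type. All 3 arrays belong to this 1 group, with no control group, and the labels give no age, sex or number of animals. It is not stated that they are separate mice or sorts, so the spread behind each p-value is that between 3 samples and could be technical.

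Notch signalling passes between touching cells. A Delta-like or Jagged ligand on 1 cell binds a Notch receptor on its neighbour, the receptor is cut by an ADAM protease and then by the gamma-secretase complex, and the freed intracellular part enters the nucleus. There it joins the DNA-binding protein RBPJ and Mastermind co-activators and switches on genes such as Hes1 and Hey1, which encode transcriptional repressors. In blood vessels Dll4 and Notch4 are known from endothelium and Notch3 from mural cells, and in the marrow Jag1 is known as a ligand of stromal and endothelial cells.

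Values are log2 expression, and a gene's value on an array is the median of its probesets. Since probes differ in affinity, levels of different genes are not ranked. Each gene was set against a background on the same array, the 95th percentile of 352 chemosensory receptor genes (olfactory, vomeronasal and bitter taste receptors), which stood at 5.40, 5.61 and 5.65 on arrays 1, 2 and 3. A gene is called above background at an adjusted p below 0.05 in limma's one-sided test over all genes, with Benjamini-Hochberg adjustment. A stricter background, the 95th percentile of 29 genes of liver, photoreceptors and sperm cells, stood at 7.26, 7.11 and 6.95.

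All 4 receptor genes and both target genes gave a signal above the chemosensory background, while of the 4 ligand genes only Jag1 did. In all 7 of the 10 genes were called, where 51.0% of all genes were. Of the 29 liver, photoreceptor and sperm cell genes 4 were called as well (Apoa2, Prm1, Prm2 and Rom1), with means from 6.57 to 7.25. A call above the chemosensory background therefore does not by itself set a gene apart from genes of other tissues. Above the stricter background 2 genes were called, Notch3 and Hes1, where 15.2% of all genes were. The median margin over the chemosensory threshold was 1.04 on the log2 scale for the 10 genes and 0.52 for all genes. In bulk RNA, fewer cells of a type and less RNA per cell cannot be told apart, so a low level may mean either.

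**Figure D1:**
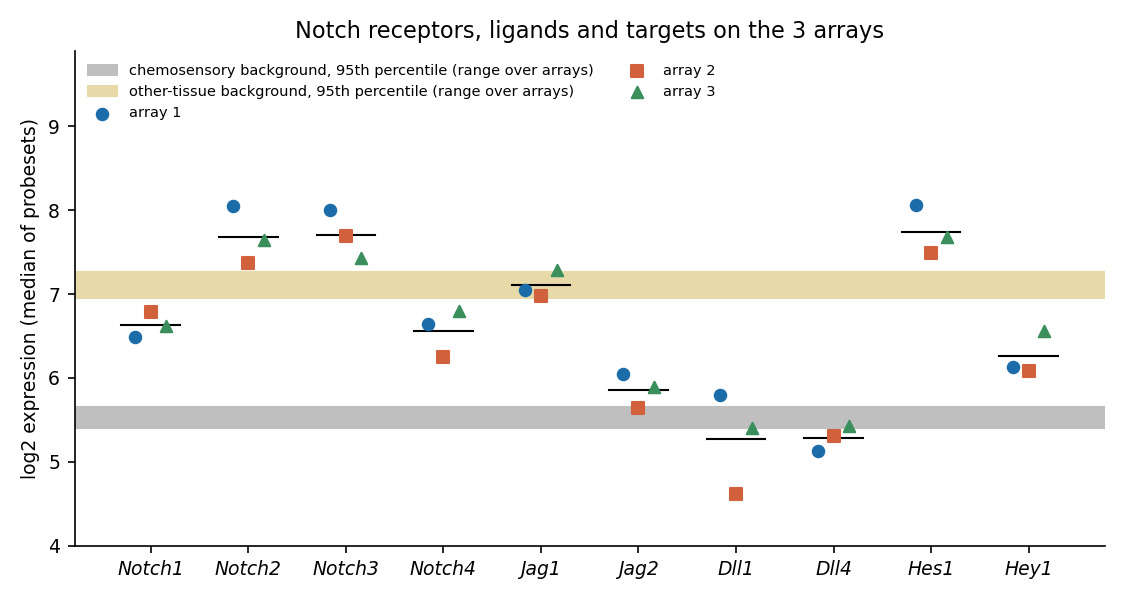
Log2 expression of the 10 genes (median of probesets, vertical axis) on arrays 1, 2 and 3 (symbols), with the mean as a bar and the range of each background threshold over the arrays as a band. Notch2, Notch3 and Hes1 lie above both bands on every array, and Dll4 lies below the threshold of its own array on all 3.

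Notch3, the receptor known from pericytes and vascular smooth muscle, had log2 values of 7.997, 7.69 and 7.42 on arrays 1, 2 and 3. These values lay above both thresholds on every array, with array 1 highest and array 3 lowest. The margin over the chemosensory threshold was 2.15 with limma's standard error of 0.21 (n = 3, adjusted p = 2.46e-05, limma), and the adjusted p against the stricter background was 0.0299. Notch2, a receptor with broad roles in blood and stromal cells, had 8.05, 7.37 and 7.64 on arrays 1, 2 and 3. It too lay above both thresholds on each array, and its chemosensory margin was 2.13 (adjusted p = 3.18e-05, limma). Against the stricter background Notch2 had a margin of 0.58 and missed the threshold (adjusted p = 0.0525, limma).

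Notch1, the receptor best known from T cell development, had 6.49, 6.78 and 6.62 on arrays 1, 2 and 3. Its values were close together, with a mean of 6.63 ± 0.15 (SD, n = 3), and all lay between the chemosensory and the stricter threshold. Its margin was 1.07 (adjusted p = 0.00051, limma). Notch4, the receptor of endothelial cells, had 6.64, 6.25 and 6.80 and was lowest on array 2. It also lay between both thresholds on every array, with a margin of 1.01 (adjusted p = 0.00137, limma). Neither Notch1 nor Notch4 reached the stricter background on any array.

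The receptors also differ in the DNA before their start sites, which is shown for the 2 receptors that lay above both thresholds on every array and for Notch4. The windows are the 250 bases before the annotated start, 5′ to 3′ on the gene's strand, from RefSeq (GRCm38.p6). Capitals mark GC boxes, the letters GGGCGG on either strand, a motif bound by Sp1 family factors.
Notch2, chr3:98013288-98013537, forward strand: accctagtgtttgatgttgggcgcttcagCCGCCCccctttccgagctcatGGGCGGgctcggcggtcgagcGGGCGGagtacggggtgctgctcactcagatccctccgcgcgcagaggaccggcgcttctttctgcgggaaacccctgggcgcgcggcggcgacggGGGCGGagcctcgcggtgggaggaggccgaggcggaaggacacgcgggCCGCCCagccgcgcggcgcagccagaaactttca
Notch3, chr17:32166891-32167140, reverse strand: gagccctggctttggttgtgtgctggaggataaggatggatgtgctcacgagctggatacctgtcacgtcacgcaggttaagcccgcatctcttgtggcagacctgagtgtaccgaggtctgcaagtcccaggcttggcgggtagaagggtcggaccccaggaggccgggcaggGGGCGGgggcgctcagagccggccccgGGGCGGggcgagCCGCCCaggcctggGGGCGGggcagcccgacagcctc
Notch4, chr17:34564045-34564294, forward strand: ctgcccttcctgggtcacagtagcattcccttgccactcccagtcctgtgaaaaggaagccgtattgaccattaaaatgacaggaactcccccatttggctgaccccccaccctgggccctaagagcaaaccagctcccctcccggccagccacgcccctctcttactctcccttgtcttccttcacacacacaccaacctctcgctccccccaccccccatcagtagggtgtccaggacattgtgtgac
The Notch2 window holds 5 GC boxes and the Notch3 window 4, while the Notch4 window holds none of these letters. Notch1 has 5. Among the ligands, Jag2 has 5 and Dll4 has 2, and neither gene was called. Jag1, which was called, has 0. Each Dll1 window also has 0, and Dll1 was not called. Whether the number of GC boxes goes with the level was not tested. A GC box occurs in 32.7% of the 32851 windows of this length in the table, and it is frequent in GC-rich DNA: the windows of Notch1, Notch2 and Notch3 are 66.0%, 72.0% and 68.8% G and C, that of Notch4 58.4%, and the median over all windows is 52.4%. The core letters of the RBPJ site, TGGGAA on either strand, are in none of the windows of the 8 members that the table holds and in 21.6% of all windows. Hes1 and Hey1 have no entry in the table. The motifs were chosen after the levels were known, and a match is a description of the letters only.

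Jag1, a transmembrane ligand of the Jagged class, was the ligand with a call. Its log2 values were 7.05, 6.97 and 7.28 on arrays 1, 2 and 3. They differed little, with a mean of 7.10 ± 0.16 (SD, n = 3), and straddled the stricter threshold, which only array 3 exceeded. The margin over the chemosensory threshold was 1.55 (adjusted p = 6.76e-05, limma), and that over the stricter one was -0.0038.

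The other 3 ligands were not called. Jag2, the second Jagged ligand, had 6.05, 5.64 and 5.89 on arrays 1, 2 and 3. It exceeded the chemosensory threshold on all 3 arrays, by only 0.02 on array 2, and missed the call with a margin of 0.31 (adjusted p = 0.146, limma). Jag2 did pass when probesets were averaged rather than summarised by their median (adjusted p = 0.0299, limma). Dll1, a Delta-like ligand, had 5.79, 4.62 and 5.40 and exceeded the threshold on array 1 alone (adjusted p = 1, limma). Dll4, the Delta-like ligand of arterial and sprouting endothelium, had 5.12, 5.30 and 5.42 and lay below the threshold on every array (adjusted p = 1, limma). A missing call does not show that a transcript was absent.

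Hes1, a repressor that many cell types switch on downstream of Notch and of other signals, had 8.06, 7.49 and 7.68 on arrays 1, 2 and 3. All values lay above both thresholds, and array 1 was highest. The margin was 2.19 with limma's standard error of 0.21 (n = 3, adjusted p = 2.21e-05, limma), and the adjusted p against the stricter background was 0.0297. Hey1, a related repressor prominent in arterial endothelium and in bone, had 6.14, 6.09 and 6.56. It lay between the thresholds on every array, with array 3 highest and a margin of 0.70 (adjusted p = 0.00638, limma).

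At the level of single probesets the signal was uneven within each gene. The probeset threshold, the 95th percentile of 2092 probesets of the same chemosensory genes, stood at 7.20, 7.33 and 7.15 on arrays 1, 2 and 3. Of the 274 probesets 48 were called in limma's one-sided test over all 318760 probesets, or 17.5%, where 18.6% of all probesets were called. This share is near the background. Without array 3 the members' count was 28. The share of all probesets called in that fit was not computed, so the drop may not be particular to these genes. Above the probeset threshold on all 3 arrays lay 74 of the 274, or 27.0%, compared with 25.2% of all probesets.

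**Figure D2:**
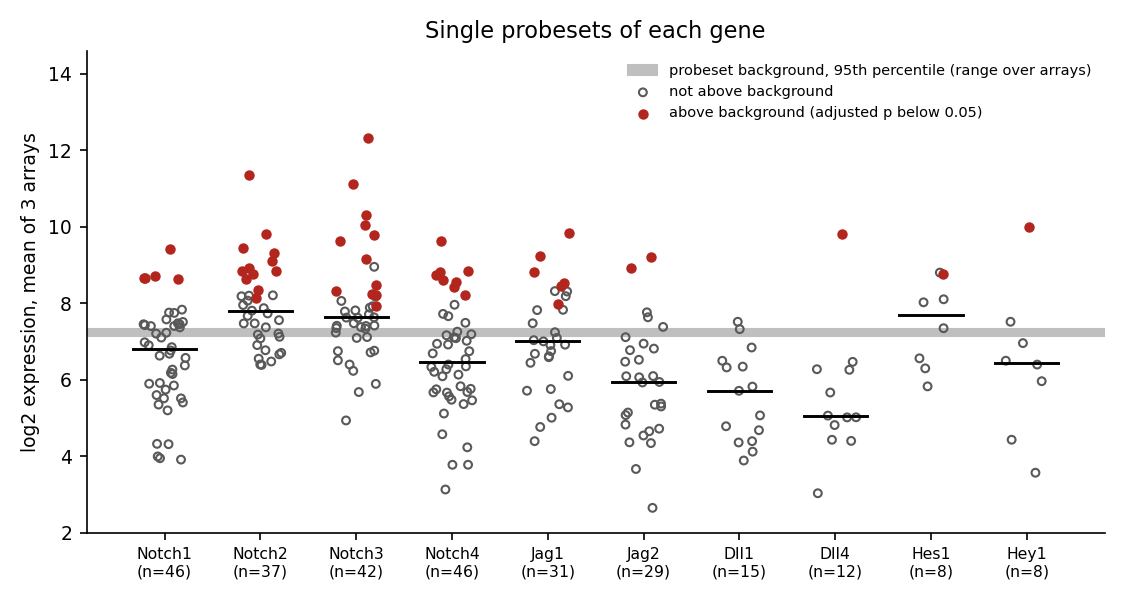
Each circle is 1 probeset of the named gene (number of probesets under the name), at its mean log2 expression over the 3 arrays, filled where it was called above the probeset background (grey band, range of the threshold over the arrays), with the median as a bar. Notch2 and Notch3 have 12 filled circles each, Dll1 has none, and Dll4 and Hey1 each have 1 filled circle near 10.

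Notch2 had 12 of 37 probesets called and Notch3 12 of 42. The means over the arrays ran from 6.39 to 11.35 for Notch2 and from 4.94 to 12.32 for Notch3. The highest Notch3 probeset had 12.23, 12.35 and 12.37 on arrays 1, 2 and 3, an SD of 0.08 between arrays, compared with an SD of 1.42 between the means of the 42 Notch3 probesets. The lowest Notch2 probeset had 6.53, 6.44 and 6.19 and was below the probeset threshold on every array. It lay above only the lower, chemosensory threshold used for gene medians. No Notch2 probeset had a mean below the mean of that gene-level threshold, compared with 1 for Notch3, 10 of 46 for Notch1 and 9 of 46 for Notch4.

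Notch1 had 5 of 46 probesets called, with means from 3.91 to 9.41, and Notch4 had 8 of 46, with means from 3.13 to 9.62. Jag1 had 6 of 31 called and Jag2 2 of 29. The 2 called Jag2 probesets were at 9.06, 8.95 and 9.60 and at 9.24, 8.86 and 8.70 on arrays 1, 2 and 3, while 13 of the 29 had a mean below the gene-level threshold. Most Jag2 probesets were dim beside these.

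Dll4 had 1 of 12 probesets called. That probeset stood at 9.19, 10.16 and 10.09 on arrays 1, 2 and 3 (adjusted p = 0.00302, limma), while the next highest had 6.72, 5.78 and 6.90. The remaining Dll4 probesets had means down to 3.03. Dll1 had 0 of 15 called, with 1 above the probeset threshold on all 3 arrays, at 7.54, 7.84 and 7.16 (adjusted p = 0.416, limma). Of 8 Hey1 probesets 1 was called, at 10.47, 9.72 and 9.83 (adjusted p = 0.00205, limma), while the others had means from 3.57 to 7.52. Which part of the transcript each probeset covers was not used here, so whether a bright probeset belongs to the main transcript was not tested.

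Hes1 had 1 of 8 probesets called, although 5 of 8 lay above the probeset threshold on all 3 arrays. The called probeset had 9.53, 8.31 and 8.45 on arrays 1, 2 and 3 (adjusted p = 0.0253, limma), and the brightest had 9.96, 8.22 and 8.23 (adjusted p = 0.0566, limma). In 7 of the 8 Hes1 probesets array 1 was highest, and the eighth had the same value, 7.35, on all 3 arrays. Of all probesets 35.6% were highest on array 1, and 251 had 1 value on all arrays. The mean over probesets spread Hes1 more widely than the median did, with 8.22, 6.92 and 7.26, a range of 1.30 in place of 0.57.

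Differences between the arrays were modest for most members. The range over the 3 arrays ran from 0.29 for Notch1 to 1.17 for Dll1 with a median of 0.51, and the median over all genes was also 0.51. Array 2 was the lowest of the 3 for 7 of the 10 genes and for 32.7% of all genes. When probesets were averaged, array 2 was lowest for 5 of the 10. With 1 group of 3 arrays no test of this order was made. The median deviation of all genes from their means was 0.03, 0.01 and -0.04 on arrays 1, 2 and 3.

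Markers of other cell types that carry Notch genes also moved between the arrays. Of the 18 measured endothelial markers 14 were called, where 51.0% of all genes were, and 0 were called above the stricter background. Their medians were 7.06, 6.03 and 7.61 on arrays 1, 2 and 3, and 17 of the 18 were lowest on array 2. Their summed signal on the linear scale was 3716, 1245 and 4747. VE-cadherin (Cdh5) had 9.14, 6.05 and 9.58, endomucin (Emcn) 8.50, 6.75 and 9.16, and Sox17 5.91, 5.15 and 5.71. Notch4 was also lowest on array 2, by 0.39 against array 1 and 0.54 against array 3. So were Notch2, Jag1, Jag2, Dll1, Hes1 and Hey1, and 32.7% of all genes were lowest there. For Hey1 (6.135 and 6.088) and Jag1 (7.05 and 6.974) arrays 1 and 2 were close. Single Notch4 probesets were lowest on array 2 in 18 of 46 cases, where 32.9% of all probesets were. For Notch2 this held for 13 of 37 probesets, for Jag1 11 of 31, for Jag2 9 of 29 and for Dll1 4 of 15. For Hes1 it held for 6 of 8 and for Hey1 4 of 8. When probesets were averaged, Jag1 was lowest on array 1, with 6.92, 7.01 and 7.22. Notch2 was then lowest on array 3, with 8.19, 7.85 and 7.68. Dll4 was lowest on array 1. The part of endothelial RNA in the levels of these genes was not tested. Without array 2 the calls of all 10 genes were as with it, and the margins were 1.19 for Notch4, 0.82 for Hey1 and 1.64 for Jag1.

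Of 8 arterial markers 5 were called, where 51.0% of all genes were, and 1 was called above the stricter background. The list medians were 6.18, 6.25 and 5.94 on arrays 1, 2 and 3. By gene, 6 of the 8 were highest on array 1, 0 on array 2 and 2 on array 3. Lowest were 1 on array 1, 4 on array 2 and 3 on array 3. Neuropilin-1 (Nrp1), a co-receptor for semaphorins and VEGF that is not limited to arteries, stood at 9.80 ± 0.14 (SD, n = 3), Efnb2, the gene of the arterial ligand ephrin-B2, at 6.95 ± 0.46 and Cxcr4 at 5.19 ± 0.25. Of 11 smooth muscle and pericyte markers 7 were called, where 51.0% of all genes were, and 1 was called above the stricter background. Their medians were 6.54, 6.01 and 6.34, with a summed linear signal of 1715, 1359 and 1656. Mylk stood at 8.42 ± 0.05, Abcc9 at 8.36, 7.10 and 9.30 on the arrays, and Lmod1 at 5.45 ± 0.18. Of the 11 markers 5 were lowest on array 3, as Notch3 was, and 4 on array 2, where 36.9% and 32.7% of all genes were. The pericyte gene Rgs5, singled out after its values were seen, had 8.39, 8.25 and 6.37, with the arrays in the same order as for Notch3. The list did not share 1 order: 4 of the 11 markers, Abcc9 among them, were highest on array 3. The part of mural cell RNA in the level of Notch3 was not tested.

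**Figure D3:**
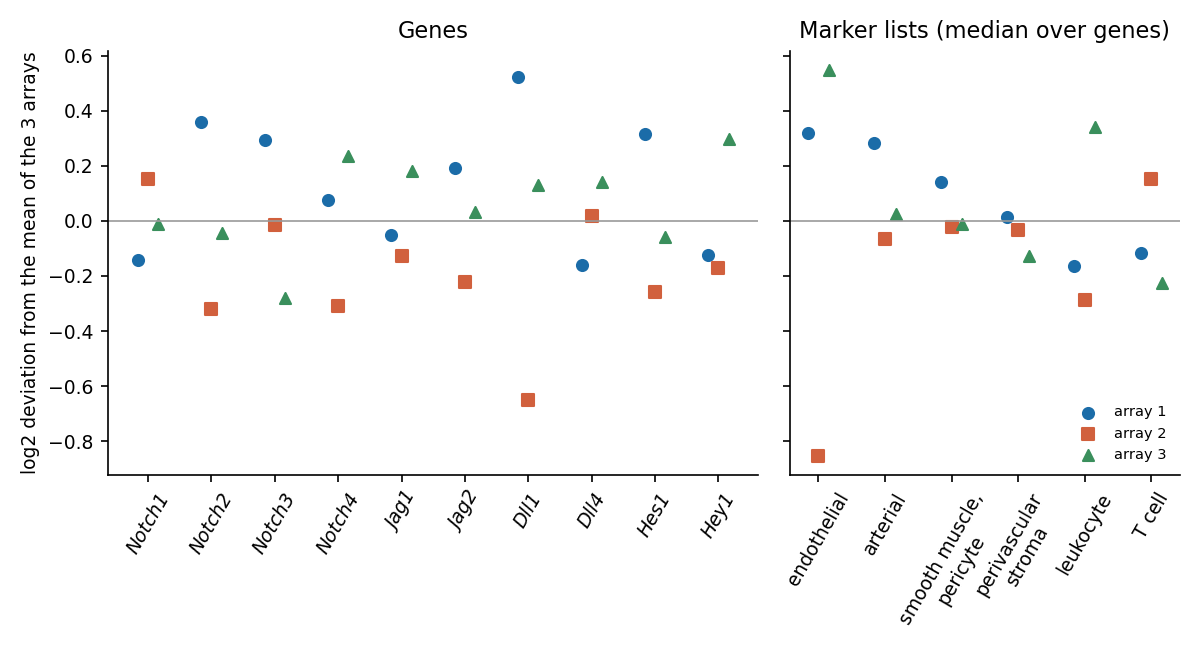
Deviation of each array from the mean of the 3 arrays (log2, vertical axis) for the 10 genes on the left and for the median over each marker list on the right. Array 2 is lowest for 7 of the 10 genes, and the endothelial list has the widest spread, from -0.85 on array 2 to 0.55 on array 3.

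Perivascular stromal markers gave a clear signal. Of 11 perivascular stromal markers 10 were called above both backgrounds, where 51.0% and 15.2% of all genes were. Cxcl12 stood at 11.75 ± 0.14 (SD, n = 3) and Cdh11 at 11.63 ± 0.17. Nes itself, whose promoter drives the reporter, had 5.97, 5.21 and 5.56 and was not called (adjusted p = 0.725, limma). Of 12 leukocyte markers 3 were called, Lcp2 (8.47 ± 0.51), Rac2 (6.67 ± 0.46) and Hcls1, and Cd48 was at 3.70 ± 0.48. Lcp2 was also called above the stricter background (adjusted p = 0.00145, limma). Of 9 T cell markers, which bear on Notch1, 2 were called, Tcf7 (6.98 ± 0.26) and Ptcra (6.72 ± 0.10), and Cd3g was at 3.58 ± 0.38. Of 6 megakaryocyte markers 2 were called, Gp9 (6.26 ± 0.17) and Treml1, while Ppbp had 7.12, 4.94 and 6.52 and Gp6 5.11 ± 0.16. No named probeset was at 0 on any array.

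Beyond the 10 genes, most of the machinery of the pathway gave a signal. Of 64 further pathway genes listed 61 were measured, and 49 of them (80.3%) were called, where 51.0% of all genes were. Above the stricter background 14 (23.0%) were called, where 15.2% of all genes were. The median margin was 1.15 for these genes and 0.52 for all genes. Many of these genes also serve other pathways.

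**Figure D4:**
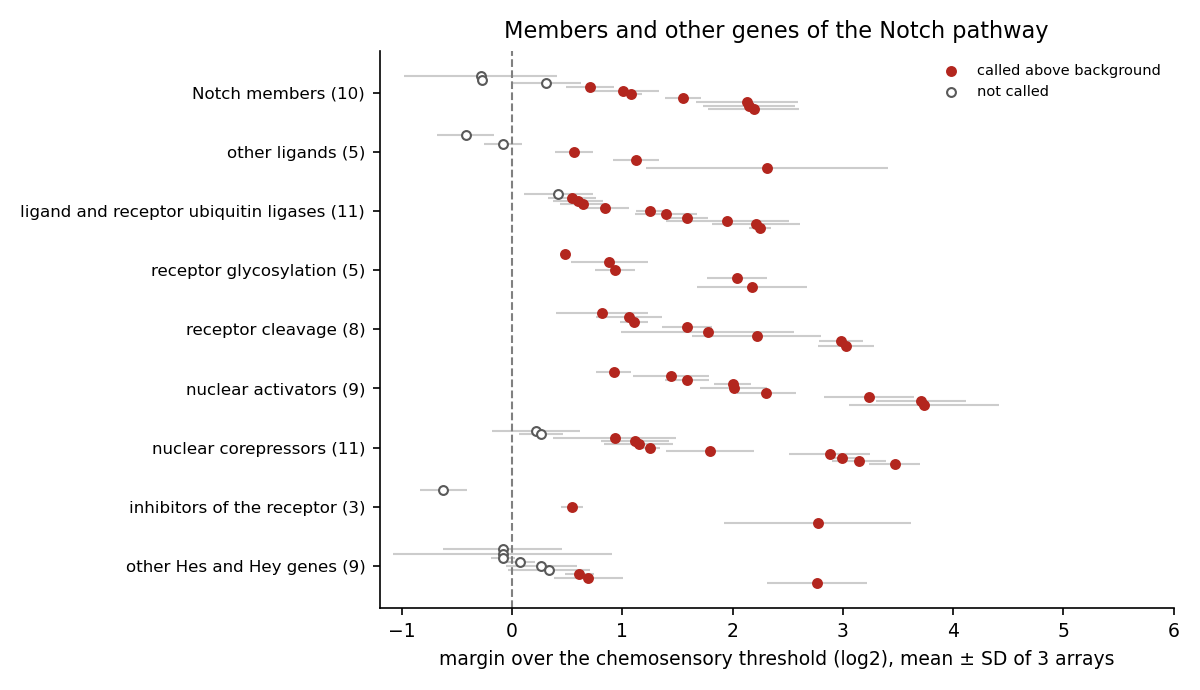
Margin over the chemosensory threshold (log2, mean ± SD of 3 arrays) for the 10 genes and for the groups of other pathway genes, with the number measured in brackets. Filled circles were called above background; all 9 nuclear activators and all 8 cleavage genes are filled, and 3 of 9 other Hes and Hey genes are.

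Genes that act on the receptor before and during cleavage were all called. Of the 5 glycosylation genes, whose enzymes put sugars on the receptor's EGF repeats, 5 were called. Poglut1, an O-glucosyltransferase, stood at 7.73 ± 0.56 (SD, n = 3), and the fringe genes Rfng and Mfng at 7.60 ± 0.20 and 6.04 ± 0.18. All 8 measured cleavage genes were called, with nicastrin (Ncstn), a gamma-secretase subunit, at 8.58 ± 0.13 and Adam10, the protease of ligand-induced cleavage, at 8.54 ± 0.07. Psen2, a catalytic gamma-secretase subunit gene, stood at 6.37 ± 0.40.

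In the nucleus all 9 activator genes were called. Rbpj, the DNA-binding partner of the cleaved receptor, had 9.32, 9.58 and 8.89 on arrays 1, 2 and 3, well above both thresholds (adjusted p = 1.32e-06, limma). Snw1, which encodes a co-activator that also acts in splicing, had 9.49, 9.78 and 8.60, and Maml3, a Mastermind gene, stood at 6.48 ± 0.29. Of 11 corepressor genes 9 were called, with the deacetylase genes Hdac2 at 9.02 ± 0.10 and Hdac1 at 8.70 ± 0.32. Ctbp2 was not called, at 5.77 ± 0.38 (adjusted p = 0.287, limma).

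Ubiquitin ligases that act on ligands or receptors were called in 10 of 11 cases. Itch stood at 7.80 ± 0.07 (SD, n = 3) and Dtx4 at 7.76 ± 0.27, and the Neuralized gene Neurl1a missed the call at 5.97 ± 0.22 (adjusted p = 0.064, limma). Among 3 inhibitors of the receptor, Numb had 8.49, 7.43 and 9.07 on arrays 1, 2 and 3 and was called, and so was Numbl at 6.10 ± 0.22. Nrarp, a feedback inhibitor that is itself a Notch target, was not called, with 4.70, 5.23 and 4.86, below the threshold on each array (adjusted p = 1, limma).

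The other ligands and the other Hes and Hey genes had fewer calls. Of 5 other ligands 3 were called: Egfl7, a secreted protein of endothelium, with 8.71, 6.75 and 8.15 on arrays 1, 2 and 3, Dlk2 at 6.68 ± 0.27 (SD, n = 3) and Dlk1. Dner was at 5.13 ± 0.13. Of 9 other Hes and Hey genes, 2 of them the related Bhlhe40 and Bhlhe41, 3 were called. Heyl, a Hey family gene known from vascular smooth muscle, had 8.37, 8.70 and 7.90, above both thresholds on each array (stricter background, adjusted p = 0.00231, limma). Hes6 stood at 6.25 ± 0.35, and the third called gene was Hes5. Hes3 had the smallest margin, -0.09, with 5.78, 5.65 and 4.97.

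With the median over probesets, the widest range of the 10 genes was that of Dll1. Its medians on arrays 1 and 2 were values of different probesets. These had 5.793, 5.876 and 5.793 and 4.511, 4.619 and 4.914 on arrays 1, 2 and 3. With the mean over probesets the range of Dll1 was 0.595, and Hes1 had the widest range, 1.30. For the Dll1 medians, 3 called genes had the most similar pattern over the 3 arrays, by the Euclidean distance between deviations from the mean. They were Rfc3 (6.81, 5.64 and 6.42, distance 0.0043), Prcp (7.76, 6.62 and 7.42, distance 0.037) and Fam162a (7.48, 6.31 and 7.04, distance 0.043). With 3 arrays, many genes share any such pattern, and this likeness is a description only.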

How the data were processed

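The files hold log2 expression per probeset as the authors deposited it, made with Affymetrix Expression Console 1.1 and RMA (background correction, normalization between arrays and summary of probes), per the submitters' processing notes. Its settings and the annotation version were not given in the sources used here. The 3 arrays had medians of 5.20, 5.22 and 5.24 on that scale. No read depth applies, and the number of arrays limits the precision. Across genes Pearson's r between arrays was 0.933 to 0.947, where genes are not independent replicates.

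Platform symbols were updated through synonyms of a RefSeq table (GRCm38.p6). Gene values were medians over probesets with 1 symbol. limma 3.58.1 in R 4.3.3 fitted an intercept to each value minus its array's background threshold, over all 18865 genes or all 318760 named probesets, one-sided, with Benjamini-Hochberg adjustment; it was tested on simulated data. Alternatives were the mean over probesets, other thresholds, probeset minimums of 1 and 8, quantile normalization, a variance trend and each array left out.

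The members and lists were chosen with earlier results of these data known. Values are given for every member, for the 2 called genes with the largest margin and the 1 gene with the smallest margin of each pathway list, and for the 2 highest and the lowest gene of each marker list. Other genes are named only to complete a count, except Rgs5, which was singled out after its values were seen. For the member with the widest range, the 3 called genes nearest in pattern are given.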

Additional observations from a re-analysis of the deposited data

How the results depend on the processing

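Of the 10 genes 7 were called, and the number stayed 7 without each array in turn and with quantile normalization, a variance trend and 8 probesets as the minimum. It was 8 with the mean over probesets, where 55.0% of all genes were called, and 5 with genes of 1 probeset included, where 33.2% were. The share of all genes called was 59.7% with 8 probesets as the minimum and 46.1% to 48.3% without single arrays. Leaving out probesets at 0 could change no result, because no named probeset was at 0. With quantile normalization or a variance trend the share of all genes called was 51.1% to 51.3%. The height of the background moved it most. With the 99th percentile of chemosensory genes 3 members were called (Notch2, Notch3 and Hes1), with 22 of 61 pathway genes and 20.8% of all genes, and with the other-tissue background 2 members, 14 pathway genes and 15.2% of all genes. Margins that changed sign under the 99th percentile were those of Notch1 (-0.13), Notch4 (-0.20), Jag2 (-0.90) and Hey1 (-0.50). Under the other-tissue background they were those of Notch1 (-0.48), Notch4 (-0.55), Jag1 (-0.004), Jag2 (-1.25) and Hey1 (-0.85). Both alternatives raise the threshold by construction. With genes of 1 probeset included Jag2 had -0.19, and Notch4 (adjusted p = 0.0501, limma) and Hey1 (adjusted p = 0.343, limma) lost their calls. The margin of Dll1 was 0.052 with the mean over probesets and, without single arrays, from -0.622 to 0.072 (without array 2), with no call in any of these. Without array 2 limma pooled the variance over all genes. Without single arrays the pathway count was 44 to 48, compared with 49, and the probeset count 28 to 35, compared with 48. The probeset count was 28 without array 3, and 3 with the 99th percentile. The share of all probesets called in these alternative fits was not computed, so the lower probeset counts may not be particular to these genes. No paired analysis was possible because there is only 1 group.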
